A study of Mus musculus with 21 samples.

Results

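The cerebral cortex of mice was studied 24 h after the last of a series of closed head impacts. Brsk1, Camta2 and Fbxl16 are 3 of the 5544 genes with deposited values. They were chosen by the size of the difference between their levels in the impact group and the sham group and by the lack of a shared range, with no fixed threshold, so the differences between the groups below are a description and carry no test. Their paralogs Brsk2 and Camta1, which were not chosen in this way, were followed beside them. The mice were wild-type male C57BL/6 (C57Bl/6J in the study's methods) aged 12 weeks. Their cortex was sampled in a high-frequency head impact group (HF-HI, 11 libraries) and a sham group (10 libraries). The HF-HI mice were anesthetized with isoflurane and received several successive impacts a day on consecutive days, and the sham mice had the same handling and anesthesia without impacts, so that anesthesia was common to both groups. The labels give each library as a separate sample and do not say how libraries relate to mice, so p-values measure the spread between these samples. Values are log2 variance-stabilized read counts, on which a difference of 1 is close to a doubling at high counts and understates the change at low counts.

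Brsk1, also known as SAD-B, is a serine/threonine kinase of the AMPK-related family that is activated by the kinase LKB1, and with Brsk2 (SAD-A) it sets up the difference between axon and dendrites in cortical neurons and acts at presynaptic terminals. Camta2 is a calmodulin-binding transcription activator that is held in check by class IIa histone deacetylases and is best known from growth of the heart muscle. Fbxl16 belongs to the F-box proteins with leucine-rich repeats, a family of which many members bring substrates to SCF ubiquitin ligases. These are built on Cul1, Skp1 and a RING protein, and whether Fbxl16 acts in one was not examined. In bulk tissue, a change in the number of cells that express a gene cannot be told apart from a change in the RNA per cell.

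The sequences just before the RefSeq starts of the 3 genes are shown so that their composition can be compared, and that of Brsk2 is shown as the partner of Brsk1. They are from RefSeq on GRCm38.p6, 5′ to 3′ on the strand of the gene, with the bases of annotated exons left out. Capitals mark matches, on either strand, to the GC box GGGCGG or the Egr site GCGNGGGCG. In Brsk2 the first run of capitals is an Egr site that overlaps a GC box.
Brsk1, chr7:4690721-4690927, plus strand: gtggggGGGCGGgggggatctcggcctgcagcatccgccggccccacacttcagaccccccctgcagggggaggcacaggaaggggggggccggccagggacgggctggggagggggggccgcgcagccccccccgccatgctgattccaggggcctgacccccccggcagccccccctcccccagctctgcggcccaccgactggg
Camta2, chr11:70688106-70688355, minus strand: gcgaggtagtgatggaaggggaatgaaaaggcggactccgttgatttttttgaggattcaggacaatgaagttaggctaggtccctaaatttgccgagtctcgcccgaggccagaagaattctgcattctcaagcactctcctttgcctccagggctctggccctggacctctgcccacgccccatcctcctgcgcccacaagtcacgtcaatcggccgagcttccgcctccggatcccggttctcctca
Fbxl16, chr17:25808211-25808460, plus strand: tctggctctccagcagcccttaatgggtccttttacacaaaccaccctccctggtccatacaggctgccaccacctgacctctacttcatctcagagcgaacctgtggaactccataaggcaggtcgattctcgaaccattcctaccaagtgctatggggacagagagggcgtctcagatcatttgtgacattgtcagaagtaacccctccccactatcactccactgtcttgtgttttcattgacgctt
Brsk2, chr7:141949501-141949750, plus strand: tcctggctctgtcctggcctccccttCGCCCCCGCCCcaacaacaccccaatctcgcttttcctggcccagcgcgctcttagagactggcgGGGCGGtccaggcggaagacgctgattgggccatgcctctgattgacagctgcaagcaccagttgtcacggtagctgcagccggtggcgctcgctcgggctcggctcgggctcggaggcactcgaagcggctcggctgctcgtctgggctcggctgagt
The GENCODE gene spans given further on begin elsewhere for a pair of them, since the stretch of Brsk1 lies inside its GENCODE span and that of Fbxl16 ends before its GENCODE span begins, so the values here hold for the RefSeq starts. Over the full window of 300 bases around the start, GC content was 78.7% for Brsk1, 57.7% for Camta2 and 50.7% for Fbxl16, beside a median of 52.7% over 32851 windows. The window of Brsk1 held 18 CpG dinucleotides, that of Camta2 19 and that of Fbxl16 5, beside a median of 7. A second annotated start of Camta2, with its shown stretch at chr11:70687531-70687780, had a GC content of 69.0% and 1 GC box. A GC box was found in the windows of Brsk1 and Brsk2 and in 35.7% of all windows. No window of Brsk1, Camta2 or Fbxl16 held the cAMP response element TGACGTCA, the AP-1 site TGANTCA, the E-box CACGTG, the Egr site or the TATA box TATAAA, which occurred in 1.79%, 7.81%, 7.15%, 5.55% and 13.6% of all windows. A match is a run of letters and not a site of binding.

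Across all 5544 genes, limma with Benjamini-Hochberg adjustment called 66.3% of genes at an adjusted p under 0.05, of which 1810 were higher in HF-HI and 1864 lower (32.6% and 33.6% of genes). The calls split into 1448 higher and 2376 lower after centring each library on its median, into 1548 and 2243 after quantile normalization, and into 1478 and 1912 after removal of each library's trend with gene GC content. Every HF-HI library was above every sham library for 8.71% of genes. The 3 chosen genes are among these by the way they were picked, so nothing is read from their number. The median difference over all genes was -0.0086 on the log2 scale.

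Brsk1 (ENSMUSG00000035390) lies on chr7:4690604-4715997 of GRCm38, on the plus strand. Its level in the 10 sham libraries ran from 9.50 to 9.84 with a median of 9.70. Its level in the 11 HF-HI libraries ran from 10.47 to 10.87 with a median of 10.66. No HF-HI library came within 0.62 of a sham library, and both groups were narrow. The means were 10.67 ± 0.13 (SD, n = 11) and 9.69 ± 0.13 (SD, n = 10), a difference of 0.98, or 1.98-fold, which is 7.65 times the SD within groups. Brsk1 ranked 40th of all genes by the size of the difference and 5th by the gap between the groups. Its exons overlap those of Tmem150b on the opposite strand over 1054 bases. The library kit keeps strand but the strand setting of the counting is not given in the sources used here, so reads from this stretch may come from either gene.

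Brsk2, the other SAD kinase, moved the same way by much less. It had a median of 10.48 in sham (10.34 to 10.67) and of 10.77 in HF-HI (10.58 to 10.92). The groups overlapped, and the difference of 0.28 ± 0.043 (SE) passed limma's test with an adjusted p of 8.28e-06. Within each library, Brsk1 minus Brsk2 was -0.81 ± 0.14 (SD) in sham, from -0.97 to -0.58, and -0.10 ± 0.098 (SD) in HF-HI, from -0.28 to 0.019. The 2 groups did not overlap on this measure, which holds the difference for which Brsk1 was chosen and so is no separate support. Divided by exonic length, the mean log2 level of Brsk1 per kb was below that of Brsk2 in sham (7.65 and 7.87) and above it in HF-HI (8.64 and 8.15). Brsk1 was the higher of the pair per kb in 11 of 11 HF-HI libraries and in 1 of 10 sham libraries. Exonic length throughout is the union over all annotated transcripts, 4100 bases for Brsk1 and 6178 for Brsk2. The transcripts expressed are unknown, so the order per kb rests on these lengths. Before the division, the mean of Brsk1 was below that of Brsk2 in both groups.

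Camta2 (ENSMUSG00000040712) lies on chr11:70669463-70688105, on the minus strand. Its sham libraries ran from 8.98 to 9.63 with a median of 9.34, and its HF-HI libraries from 9.84 to 10.75 with a median of 10.38. The groups did not overlap but came closest of the 3 genes, 0.21 apart, and the nearest HF-HI library was HF-HI 9 at 9.84. The means were 10.37 ± 0.25 (SD, n = 11) and 9.30 ± 0.24 (SD, n = 10), a difference of 1.07, or 2.10-fold, which is 4.38 times the SD within groups. Camta2 ranked 22nd by difference and 119th by gap.

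Camta1, the second CAMTA gene, ran from 11.62 to 11.97 in sham and from 11.84 to 12.31 in HF-HI, with medians of 11.76 and 12.02. The groups overlapped, and the difference of 0.26 ± 0.051 (SE) had an adjusted p of 1.34e-04 in limma's test. Camta2 minus Camta1 was -2.48 ± 0.23 (SD) in sham, from -2.79 to -2.10, and -1.66 ± 0.30 (SD) in HF-HI, from -2.47 to -1.27. HF-HI 9, lowest for Camta2 and highest for Camta1, was the library that carried the HF-HI range into the sham range. Per kb of exon, Camta2 was below Camta1 in both groups, at 6.92 and 7.91 in sham and at 7.99 and 8.17 in HF-HI, so the pair drew near without changing order in the means.

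Fbxl16 (ENSMUSG00000025738) lies on chr17:25809085-25821255, on the plus strand, and was the most abundant of the 3 per kb of exon, at a log2 level of 9.16 in sham and 10.56 in HF-HI. The sham libraries ran from 10.52 to 11.52 with a median of 11.02. The HF-HI libraries ran from 12.00 to 12.74 with a median of 12.38. The groups were 0.48 apart at their nearest libraries. The means were 12.41 ± 0.22 (SD, n = 11) and 11.01 ± 0.29 (SD, n = 10), a difference of 1.40, or 2.64-fold, which is 5.53 times the SD within groups and ranked 7th of all genes.

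**Figure D1:**
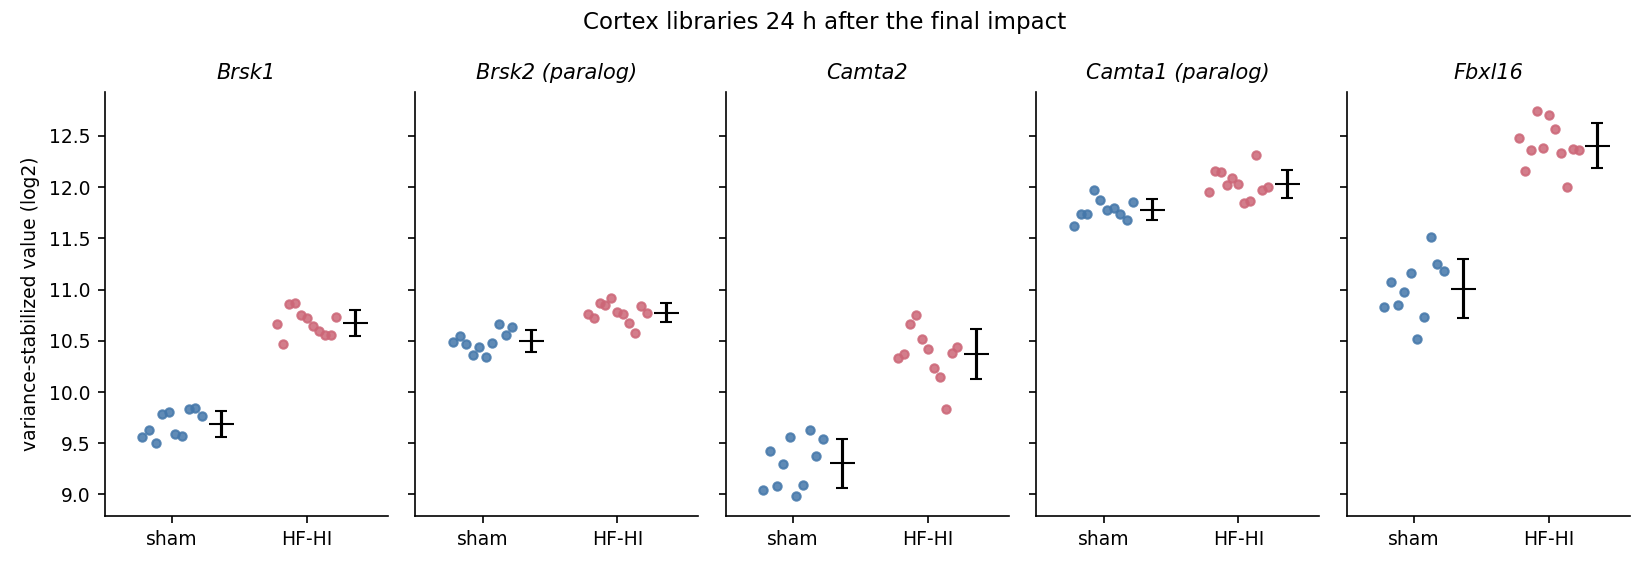
Log2 variance-stabilized level of Brsk1, Camta2, Fbxl16, Brsk2 and Camta1 in each sham and HF-HI library, 1 point per library, with black bars for the mean and SD of each group. The HF-HI points of Brsk1, Camta2 and Fbxl16 all sit above the sham points, while those of Brsk2 and Camta1 overlap.

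**Figure D2:**
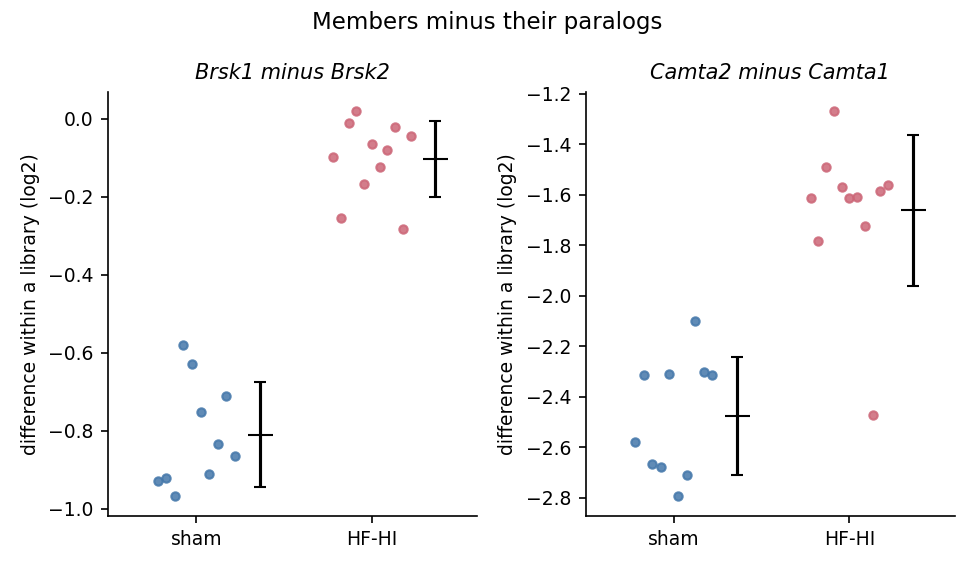
Level of Brsk1 minus Brsk2 and of Camta2 minus Camta1 within each library, on the log2 scale, with the mean and SD of each group. Brsk1 minus Brsk2 ran from -0.97 to -0.58 in sham and from -0.28 to 0.019 in HF-HI, and for Camta2 minus Camta1 only HF-HI 9 fell into the sham range.

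The 3 genes are rich in G and C, and the libraries differed in how their values ran with gene GC content. Exonic GC content was 57.6% for Brsk1, 58.3% for Camta2 and 58.8% for Fbxl16, beside a median of 47.6% over all genes. The slope on GC content was fitted to each library's deviations from the mean of each gene over all 21 libraries. It is thus relative to the other libraries, and its sign does not say how the values themselves ran with GC content. The slope was from -0.23 to 0.0058 per 10 percentage points in sham and from -0.039 to 0.16 in HF-HI. Genes within 1 percentage point of Brsk1 were called higher in 61.1% of 270 cases, with a median difference of 0.23, and 5 of them differed by at least as much as Brsk1. Around Camta2, 66.2% of 234 genes were called higher, with a median of 0.26, and 7 differed by as much. Around Fbxl16, 65.8% of 219 genes were called higher, with a median of 0.26, and 1 differed by as much. With the GC trend removed from each library, the differences were 0.73 for Brsk1, 0.80 for Camta2 and 1.11 for Fbxl16, and the groups of all 3 still did not overlap, with gaps of 0.41, 0.13 and 0.47. Brsk2, with a GC content of 57.1%, differed by 0.042 on that scale (adjusted p = 0.257, limma) and was no longer called. Camta1 differed by 0.19 (adjusted p = 0.00352, limma).

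**Figure D3:**
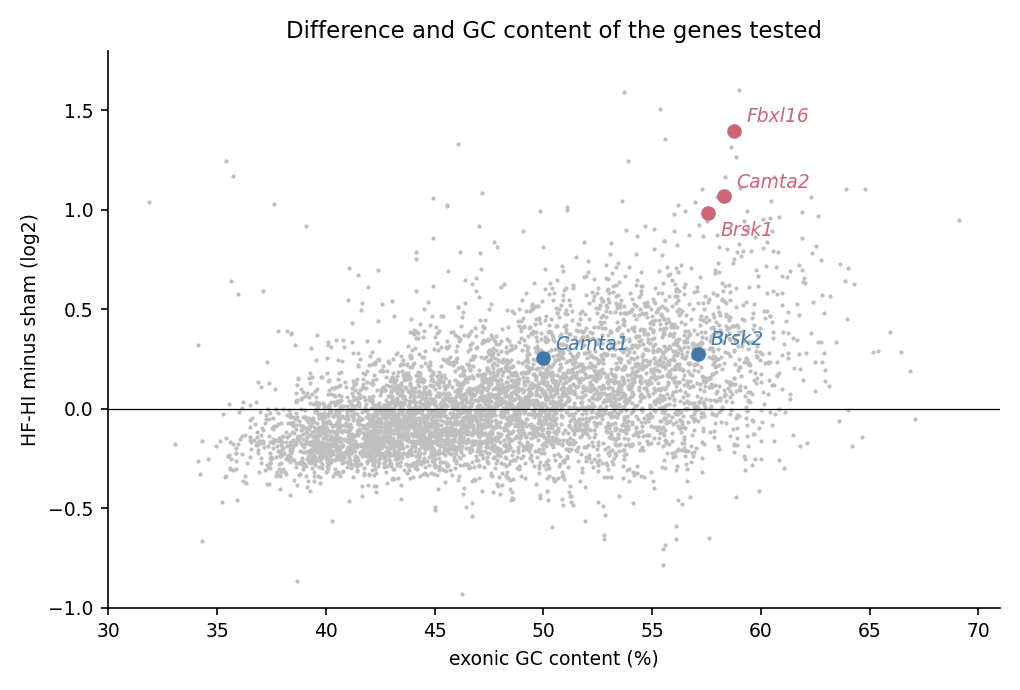
Difference HF-HI minus sham (log2) of each gene against its exonic GC content in percent, with the chosen genes and their paralogs marked. Brsk1, Camta2 and Fbxl16 lie near the top of the genes of like GC content, whose median differences were 0.23, 0.26 and 0.26, and 6 genes lie outside the range drawn.

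Within the sham group, the levels of the 3 genes were correlated from library to library. Pearson's r and Spearman's rho were tested by permutation for 5 pairs in each group, with Benjamini-Hochberg adjustment over the 10 tests of each kind. In the 10 sham libraries, Camta2 and Fbxl16 had r = 0.92 (permutation p = 8e-05, adjusted 8e-04) and rho = 0.88 (permutation p = 0.00194, adjusted 0.0194). Brsk1 and Camta2 had r = 0.83 (permutation p = 0.00964, adjusted 0.0259) and rho = 0.73 (permutation p = 0.0209, adjusted 0.0418). Brsk1 and Fbxl16 had r = 0.80 (permutation p = 0.00559, adjusted 0.0259) and rho = 0.81 (permutation p = 0.00776, adjusted 0.0259). Without the 2 libraries farthest from the median of the first gene, these r were 0.90, 0.86 and 0.81.

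Among the 3 chosen genes in the 11 HF-HI libraries, only Brsk1 with Camta2 passed after adjustment. Brsk1 and Camta2 had r = 0.73 (permutation p = 0.0104, adjusted 0.0259) and rho = 0.78 (permutation p = 0.00629, adjusted 0.0259), with r = 0.81 without the 2 farthest libraries. Brsk1 and Fbxl16 had r = 0.61 (permutation p = 0.045, adjusted 0.0642) and rho = 0.56 (permutation p = 0.0751, adjusted 0.125), with r = 0.34 without 2 libraries. Camta2 and Fbxl16 had r = 0.61 (permutation p = 0.0446, adjusted 0.0642) and rho = 0.47 (permutation p = 0.146, adjusted 0.209), and r fell to -0.084 without HF-HI 4 and HF-HI 9, so that relation rested on these libraries. Among the HF-HI libraries, HF-HI 4 had the highest GC slope (0.16) and HF-HI 9 the lowest (-0.039), which lay inside the sham range. Whether the correlations differ between sham and HF-HI was not tested.

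For the paralogs, only rho of the Brsk pair in HF-HI passed after adjustment. In sham, Brsk1 and Brsk2 had r = 0.36 (permutation p = 0.305, adjusted 0.381) and rho = 0.36 (permutation p = 0.313, adjusted 0.391). In HF-HI they had r = 0.64 (permutation p = 0.0317, adjusted 0.0634) and rho = 0.71 (permutation p = 0.018, adjusted 0.0418). Without the 2 farthest libraries r was 0.32 in sham and 0.65 in HF-HI. Camta2 and Camta1 had r = 0.28 (permutation p = 0.441, adjusted 0.49) and rho = 0.16 (permutation p = 0.654, adjusted 0.654) in sham, and r = 0.45 without 2 libraries. In HF-HI they had r = -0.14 (permutation p = 0.671, adjusted 0.671) and rho = 0.23 (permutation p = 0.503, adjusted 0.559). Without HF-HI 4 and HF-HI 9, r of Camta2 with Camta1 was 0.82, so its sign in HF-HI turned on these 2 libraries.

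Levels of Camta2 and Fbxl16 went with the GC slope of the libraries in both groups. For Brsk1 only rho in sham passed after adjustment. In sham, r with the slope was 0.90 for Fbxl16 (permutation p = 6.4e-04, adjusted 0.0064), 0.82 for Camta2 (permutation p = 0.00592, adjusted 0.0197) and 0.67 for Brsk1 (permutation p = 0.0379, adjusted 0.0541), with rho of 0.87, 0.83 and 0.75 (permutation, adjusted p = 0.0227, 0.0233 and 0.0296). In HF-HI, r was 0.66 for Fbxl16 (permutation p = 0.0272, adjusted 0.0453), 0.75 for Camta2 (permutation p = 0.00948, adjusted 0.0237) and 0.44 for Brsk1 (permutation p = 0.177, adjusted 0.221), with rho of 0.73, 0.66 and 0.59 (permutation, adjusted p = 0.0296, 0.0439 and 0.0769). Without the 2 libraries of most extreme slope, r in sham was 0.78, 0.68 and 0.58, and r in HF-HI was 0.42, 0.80 and 0.72, in the same order of genes. The relation was not particular to the chosen genes. Brsk2 had r with the slope of 0.71 in sham and 0.78 in HF-HI (permutation, adjusted p = 0.0453 and 0.0197), or 0.39 and 0.78 without the 2 libraries. Camta1 had r of -0.23 and -0.40 (permutation, adjusted p = 0.53 and 0.238). With the GC trend removed, Camta2 with Fbxl16 in sham kept r = 0.84 (permutation, adjusted p = 0.0228), while Brsk1 with Camta2 had 0.53 in sham and 0.42 in HF-HI and Brsk1 with Fbxl16 had 0.39 in sham, each with an adjusted permutation p of 0.44.

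**Figure D4:**
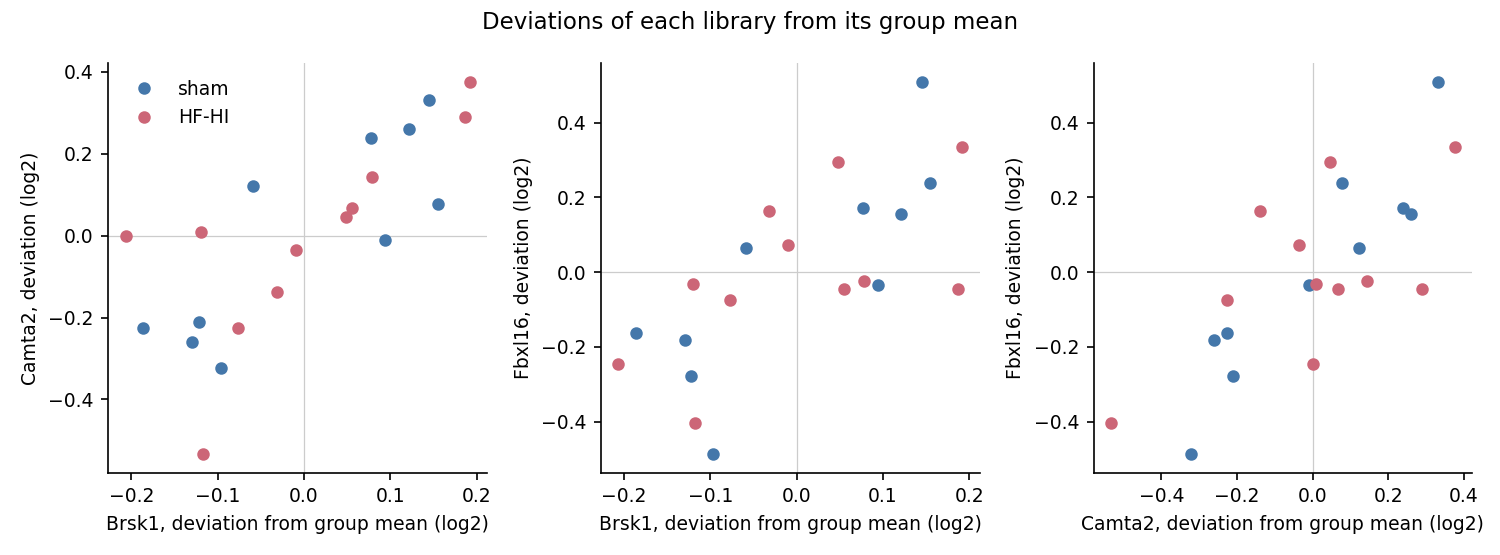
Deviations of Brsk1, Camta2 and Fbxl16 from their group means, plotted against each other on the log2 scale, 1 point per library. Sham and HF-HI have different colours. Among the sham points the pairs have r of 0.83, 0.80 and 0.92, and among the HF-HI points of 0.73, 0.61 and 0.61.

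The genes most like each of the 3 were ranked by Pearson's r of deviations from the group means over all 21 libraries, a description that shares the libraries' GC slopes. Brsk1 was closest to Trim8, a ubiquitin ligase (r = 0.87), Scrt1, a neuronal transcriptional repressor (0.85), Shank3, a scaffold of the postsynaptic density (0.85), the palmitoyltransferase Zdhhc8 (0.84) and the adhesion receptor Adgrb1 (0.84). Camta2 was closest to Prrc2a (r = 0.93), the transcriptional coregulator Hcfc1 (0.92), the potassium-chloride cotransporter Slc12a5 (0.92), the transcription factor Mef2d (0.92) and the calcium sensor Syt7 (0.92). Fbxl16 was closest to Kazn (r = 0.89), the ganglioside synthase B4galnt1 (0.88), Bcr (0.87), the kinase Pak6 (0.87) and the syndecan Sdc3 (0.87). All 15 were called higher in HF-HI (32.6% of all genes) and 8 of them did not overlap between the groups (8.71% of all genes). Hcfc1 was at 0.036 and no longer called with the GC trend removed (adjusted p = 0.379, limma). Slc12a5 was at 0.065 and no longer called with both the GC trend removed and the replicate number as a block (adjusted p = 0.0969, limma). That fit left out HF-HI 11. The differences of the 15 genes ran from 0.20 for Hcfc1 to 1.10 for Scrt1. Their exonic GC content was between 53.1% and 64.8%, and r with the GC trend removed was between 0.62 and 0.88. Camta2 ranked 23rd among 5543 genes in likeness to Brsk1 (r = 0.77), Fbxl16 71st (0.71) and Brsk2 581st (0.50). With the GC trend removed these r were 0.47, 0.34 and 0.084. Brsk1 itself ranked 208th in likeness to Camta2 and 222nd in likeness to Fbxl16.

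Among the AMPK-related kinases and the LKB1 complex, 14 of 25 listed genes were measured, of which 10 were called higher, 3 lower and 1 neither (limma, against 32.6% and 33.6% of all genes). Their median difference was 0.12. Mark2, a microtubule affinity-regulating kinase, had a median of 8.79 in sham (8.58 to 9.13) and of 9.58 in HF-HI (9.14 to 9.75) and rose by 0.71 ± 0.068 (SE, adjusted p = 1.17e-08, limma). Nuak1, a kinase of axon branching downstream of LKB1, rose by 0.55 (9.06 to 9.49 in sham, 9.66 to 10.04 in HF-HI, adjusted p = 3.31e-08, limma). Neither gene overlapped between the groups, though the gap of Mark2 was only 0.0097 and that of Nuak1 0.17. The salt-inducible kinases Sik2 and Sik3, which phosphorylate class IIa histone deacetylases, rose by 0.41 and 0.39 (adjusted p = 3.09e-06 and 1.11e-06, limma). Stk11, which encodes LKB1, differed by 0.15 (adjusted p = 0.00864, limma), and by -0.14 with the GC trend removed (adjusted p = 0.0576). The scaffold of the LKB1 complex Cab39 fell by 0.29 (adjusted p = 1.49e-05, limma). The catalytic AMPK subunits Prkaa1 and Prkaa2 rose by 0.097 and 0.12 (adjusted p = 0.00797 and 0.00427, limma). The split was 5 higher and 4 lower after centring on the library median, 7 and 4 after quantile normalization, and 6 and 3 with the GC trend removed.

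Of the partners and regulators of CAMTA proteins, 8 of 13 listed genes were measured, with 4 higher and 2 lower (32.6% and 33.6% of all genes) and a median difference of 0.11. The class IIa histone deacetylases Hdac5, Hdac9 and Hdac4, the repressors of Camta2, rose by 0.35, 0.23 and 0.18 (adjusted p = 5.93e-05, 0.00265 and 0.0043, limma). With the GC trend removed, Hdac5 at 0.078 and Hdac4 at 0.11 were no longer called (adjusted p = 0.15 and 0.0521, limma), and the list had 2 higher and 2 lower. Of the genes of calmodulin, which binds CAMTA proteins, Calm2 fell by 0.15 (adjusted p = 0.00331, limma) and Calm3 was at -0.0039 (adjusted p = 0.924, limma). With the GC trend removed, Calm3 was at -0.29 (adjusted p = 9.58e-05, limma) and Calm2 at -0.076 (adjusted p = 0.0504, limma).

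Most measured relatives of Fbxl16 and genes of the SCF core were lower in HF-HI. Of 25 listed genes 13 were measured, with 3 called higher and 8 lower (32.6% and 33.6% of all genes) and a median difference of -0.15. All 4 measured genes of the SCF core fell: the adaptor Skp1a by 0.40 (adjusted p = 3e-07, limma), the scaffold Cul1 by 0.29 (adjusted p = 1.81e-07, limma), and the RING proteins Rnf7 by 0.28 (adjusted p = 3.96e-06, limma) and Rbx1 by 0.17 (adjusted p = 8.97e-04, limma). The groups of Skp1a and Cul1 did not overlap. Skp1a had 12.06 to 12.48 in sham and 11.76 to 12.04 in HF-HI. Among the Fbxl genes beside Fbxl16, Fbxl18 rose by 0.58 ± 0.061 (SE, adjusted p = 3.52e-08, limma) with no overlap, from 8.27 to 8.82 in sham and from 9.03 to 9.32 in HF-HI. Fbxl19 differed by 0.16 (adjusted p = 0.0264, limma), but by -0.18 with the GC trend removed, where it was called lower (adjusted p = 3.45e-04, limma). Its higher call was lost after centring (0.11), after quantile normalization (0.085), with relative depth as a covariate (0.13), and without sham 6, sham 7, sham 10 or HF-HI 4 (0.14 to 0.15). Fbxl5, the iron sensor of the cell, and also Fbxl17 and Fbxl2 fell by 0.16, 0.16 and 0.15 (adjusted p = 3.87e-04, 0.00343 and 0.00213, limma). Fbxl5 was at -0.047 and no longer called with the GC trend removed (adjusted p = 0.0827, limma). Fbxl20 was at 0.030 (adjusted p = 0.383, limma).

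**Figure D5:**
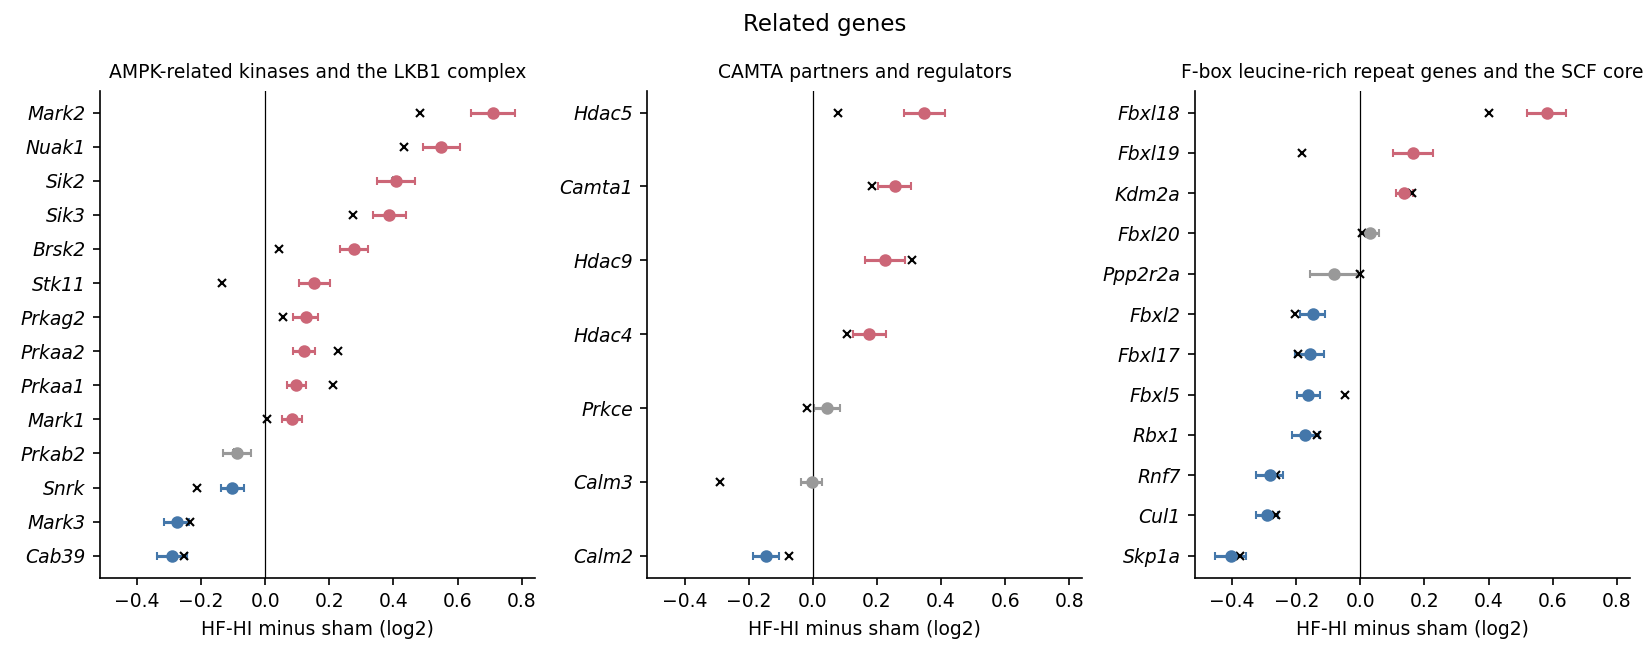
Difference HF-HI minus sham (log2) of measured genes of the 3 lists, those reported here, with bars for the SE, red for genes called higher, blue for lower, grey for neither, and black crosses for the value with the GC trend removed. The AMPK-related kinases are mostly above 0 (10 higher, 3 lower), and the F-box and SCF genes are mostly below 0.

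The genes next to the 3 in the genome had calls that turned on the scaling in several cases. Within 100 kb of Brsk1, 4 genes were measured and none was called higher. Ube2s, a ubiquitin-conjugating enzyme 78549 bases away, fell by 0.16 (adjusted p = 0.00121, limma), while the nearest, Hspbp1 at 5536 bases, was at -0.11 (adjusted p = 0.139, limma), Ppp6r1 at -0.025 (adjusted p = 0.571) and Rpl28 at 0.11 (adjusted p = 0.0629). Hspbp1 at -0.34 and Ppp6r1 at -0.23 were both called lower with the GC trend removed (adjusted p = 3.48e-05 and 3.9e-05, limma), and Hspbp1 was also called lower after centring (-0.16), after quantile normalization (-0.19) and without sham 10 (-0.15). Rpl28 was called higher without sham 1 (0.13), sham 9 (0.14) or HF-HI 11 (0.13). Within 100 kb of Fbxl16, none of Stub1, Rhot2 and Haghl was called, with differences of 0.010, 0.11 and -0.11 (adjusted p = 0.903, 0.159 and 0.0794, limma). Haghl at -0.37 and Stub1 at -0.30 were both called lower with the GC trend removed (adjusted p = 1.46e-06 and 4.58e-04, limma). Haghl was also called lower after centring on the library median (-0.16), after quantile normalization (-0.14) and with relative depth as a covariate (-0.18). Around Camta2, 3 of 5 genes were called higher (32.6% of all genes). The actin-binding profilin gene Pfn1 rose by 0.34 (adjusted p = 2.13e-05, limma), the motor gene Kif1c by 0.24 (adjusted p = 3.1e-04, limma), and the kinase gene Mink1, 54980 bases away, by 0.70 with no overlap between the groups (adjusted p = 2.33e-08, limma). Rnf167 and Slc25a11 were at 0.065 and -0.12 (adjusted p = 0.124 and 0.0609, limma). Pfn1 at 0.095 and Kif1c at 0.083 were no longer called with the GC trend removed (adjusted p = 0.0939 and 0.177, limma), and Slc25a11 at -0.28 was then called lower (adjusted p = 5.78e-05, limma). Slc25a11 was also called lower after centring (-0.18), after quantile normalization (-0.16), with relative depth as a covariate (-0.18) and without sham 6, sham 7, HF-HI 1 or HF-HI 7 (-0.14 to -0.15). Rnf167 was called higher without HF-HI 9 (0.090).

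Markers of the tissue were present, with all 12 neuronal markers and all 10 astrocyte markers in the table. Of the neuronal markers 7 were called higher and 1 lower (32.6% and 33.6% of all genes), and their summed log2 level was 16.70 to 16.82 in sham and 16.82 to 16.96 in HF-HI. Slc17a7, the vesicular glutamate transporter of excitatory neurons, differed by 0.89 and Rbfox3 by 0.83, each without overlap. The GABA-synthesizing Gad1 and Gad2 were at -0.097 and -0.010. Exonic GC content was 56.0%, 59.0%, 47.6% and 44.3% for these genes in the same order. Stmn2, at 42.4%, rose by 0.70 without overlap, and Map2, at 43.6%, was the neuronal marker called lower. The part of GC content in these marker differences was not tested. Of the astrocyte markers 4 were higher and 2 lower, with summed levels of 16.40 to 16.50 in sham and 16.49 to 16.58 in HF-HI. Of 9 oligodendrocyte markers 2 were higher, with summed levels of 15.37 to 16.09 in sham and 15.40 to 16.07 in HF-HI. Only 2 of 9 microglial and 2 of 8 endothelial markers were measured. Choroid plexus was represented by Ttr alone, which ran from 6.16 to 11.51 in sham and from 6.86 to 13.35 in HF-HI. The part of neuronal content in the differences of Brsk1, Camta2 and Fbxl16 was not tested. How many reads each library held is unknown. Relative depth, read from the spacing of the values, was 0.58 to 1.26 in sham and 0.55 to 1.64 in HF-HI, and no correlation of the 3 genes with it passed the permutation test after adjustment within a group. Camta1 in sham had r = -0.81 with relative depth (permutation p = 0.00418, adjusted 0.0418) and rho = -0.77 (permutation p = 0.0124, adjusted 0.124), and r = -0.49 without the 2 libraries of most extreme depth. With relative depth as a covariate its difference was 0.31 (adjusted p = 2.77e-06, limma).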

How the data were processed

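RNA of 21 cortex libraries (10 sham, 11 HF-HI) was sequenced as stranded total RNA. Per the study's methods and notes, the authors aligned reads to mm10 with STAR, estimated counts with eXpress, and deposited log2 variance-stabilized values from DESeq2 for 5544 genes. Genes with outlying counts were removed, and the versions of STAR and eXpress and the gene annotation are not given in the sources used here. Any further selection of the 5544 genes is not stated there either. Ranks, shares and counts of measured genes refer to this set. A count test could not be run on such values, so limma 3.58.1 in R 4.3.3 (lmFit, eBayes with a trend) was fitted on all genes, two-sided, with Benjamini-Hochberg adjustment at 0.05. It was tested on simulated data. Ensembl IDs were matched to GENCODE vM21 symbols (5541 genes) and exonic GC content (5539 genes). The GC trend of each library, taken in its deviations from the gene means over all libraries, was removed by lowess with span 0.3. Permutation tests used 100000 resamples. Members and lists were chosen with earlier results of these data known. Genes named are Brsk1, Camta2 and Fbxl16, their paralogs, the Fbxl genes, the 4 largest called differences in each list, the 5 genes most alike to each, and tested genes within 100 kb. Some listed genes, counted in their lists, are not reported here by name. Other genes of the lists and Slc17a7, Rbfox3, Gad1, Gad2, Stmn2, Map2 and Ttr were named after their values were seen. Alternatives covered normalization, low values, depth, threshold, test, replicate block and left-out libraries. The fits with the replicate block left out HF-HI 11. Replicate numbers did not pair the libraries.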

Additional observations from a re-analysis of the deposited data

How the results depend on the processing

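Each difference of Brsk1, Camta2 and Fbxl16 stayed positive under every alternative run. The genes were picked for groups that did not overlap, so leaving out a library could not turn their signs. Leaving out each library in turn gave 0.96 to 1.01 for Brsk1, 1.03 to 1.12 for Camta2 and 1.34 to 1.46 for Fbxl16, 0.26 to 0.30 for Brsk2, 0.23 to 0.28 for Camta1, and 3562 to 3805 called genes in all. With the GC trend removed the differences were 0.73, 0.80, 1.11 and, for Brsk2, 0.042, and the within-group r were 0.53 (Brsk1 with Camta2, sham), 0.42 (the same pair, HF-HI), 0.39 (Brsk1 with Fbxl16, sham) and -0.18 (Brsk1 with Brsk2, sham). The cause was not tested. Without the 2 libraries farthest from the median, r of Camta2 with Fbxl16 in HF-HI was -0.084 and of Camta2 with Camta1 0.82. Without HF-HI 9 alone, an alternative chosen after seeing the data, the latter was 0.66. Requiring a difference of at least 0.25 left 1433 genes, 987 higher and 446 lower, with 5 higher AMPK-related genes, 2 higher and 0 lower CAMTA partners, and 1 higher and 3 lower F-box or SCF genes. Without the quartile of lowest mean value 1 F-box or SCF gene was higher. Higher AMPK-related genes numbered 5 after centring on the median and 6 with the GC trend removed, and higher CAMTA partners 2 with the GC trend removed.

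Signs turned for the differences of Fbxl20 (-0.022 after centring on the median and after quantile normalization), Fbxl19 (-0.18 with the GC trend removed, called lower), Rpl28 (-0.042), Rnf167 (-0.0071) and Rhot2 (-0.081), the last 3 with the GC trend removed. Stub1 was -0.042 after centring, -0.020 after quantile normalization, -0.30 with the GC trend removed, -0.078 with relative depth as a covariate, and -0.018 to 0.040 with a library left out.

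The replicate numbers did not pair the libraries: same-numbered deviations correlated from -0.31 to 0.36 over 10 pairs, and 0 sham libraries were closest to their own number. The replicate block left out HF-HI 11, which had no sham library of the same number. With the block, 3497 genes were called and 1 CAMTA partner was lower. Brsk2 differed by 0.28 and Camta1 by 0.26, and Rpl28 (0.13) and Rhot2 (0.14) were called higher. Without HF-HI 11 and without the block, Brsk2, Camta1 and Rpl28 differed by the same amounts. Rpl28 was called higher there too (adjusted p = 0.0413, limma), so its call cannot be credited to the block. With the block and the GC trend removed, the differences were 0.72 for Brsk1, 0.78 for Camta2, 1.11 for Fbxl16, 0.035 for Brsk2, -0.18 for Fbxl19, -0.034 for Rpl28, -0.012 for Rnf167, -0.060 for Rhot2 and -0.28 for Stub1, with 6 higher AMPK-related genes and 2 higher and 1 lower CAMTA partners.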
